A study of Mus musculus with 2 samples.

Results

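The 10 genes described here are Trp53, which encodes p53, 6 of its classical targets (Cdkn1a, Mdm2, Ccng1, Trp53inp1, Phlda3 and Btg2) and the 3 Gadd45 genes (Gadd45a, Gadd45b and Gadd45g). They were taken by symbol from the 31053 genes of the deposited matrices, and all 10 were found. The genes were put together with the ratio of Gadd45a between the libraries already known, so the ratios of the members between the libraries are given as a description. They were measured by single-cell RNA-seq in spleen cells of mice with acute myeloid leukemia driven by AE9a, a shortened form of the AML1-ETO fusion protein. The leukemia grew from fetal liver cells that were transduced with a retrovirus carrying AE9a and GFP, and the cells carried floxed Usp18 and an ER-Cre recombinase that is expressed in all tissues and activated by tamoxifen. One group of recipients received oil and the other received tamoxifen, and GFP+ Lin- c-Kit+ splenocytes were sorted 3 days after the first injection. Each group is 1 library made from 3 pooled mice. The labels conflict here: the sample titles and their genotype and treatment entries give a homozygous floxed or deleted Usp18, whereas the treatment protocol describes 1 floxed allele and a heterozygous depletion. The groups are therefore named by injection.

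p53 is a transcription factor that accumulates after DNA damage and other stress, when its degradation by Mdm2 is relieved. It raises genes that stop the cell cycle, repair DNA or promote cell death, and Mdm2 is itself a target, which closes a feedback loop. The Gadd45 genes encode small proteins that bind PCNA, the CDK1-cyclin B1 kinase and the MAP kinase kinase kinase MEKK4. Gadd45a is a textbook p53 target through a site within one of its introns, but it also answers to FOXO and stress factors, and Gadd45b and Gadd45g are known mainly as responders to cytokines and NF-kB.

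After filtering, the library labelled oil held 6838 cells and 66045700 UMIs (unique molecular identifiers, the number of distinct captured transcripts), and the library labelled tamoxifen held 6472 cells and 60661486 UMIs. The median depth was 8622.5 and 8209.5 UMIs per cell, and the libraries shared 14 barcodes. The targeted transcript went against its label: Usp18 had 371 UMIs in the library labelled oil, against 933 in the library labelled tamoxifen, a log2 ratio of 1.45 (1.28 to 1.63). The part of Usp18 that recombination removes was not given in the sources used here, so the 3′ UMIs may lie outside it. Kit, Gata2 and Myb, which mark the sorted cells, summed to 42460 and 41446 UMIs, whereas the T cell markers summed to 0 and 4, the neutrophil markers to 1 and 0, the B cell markers to 14 and 11, the NK cell markers to 29 and 38, the endothelial markers to 18 and 31 and the macrophage markers to 156 and 153. Among the defining markers Cd3g, Trac, S100a8, Ly6g, Mmp8, Ncr1, Klrb1c and Cdh5 were at 0 in both libraries. With 1 library per group no test was possible. All ranges in parentheses are 95% intervals of counting error alone, and every ratio is one between these libraries.

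The start regions of the members were examined to see which sequences they share. RefSeq windows on GRCm38.p6, 250 bases before to 50 bases after the start, were at hand for 9 of the 10 genes, with 10 windows in all because Cdkn1a has an upstream and a downstream start. A p53 decamer, the 10-base element of which a p53 site holds a pair, matched on either strand in 5 of the 10 windows (Trp53, the upstream Cdkn1a start, Mdm2, Ccng1 and Gadd45a) and in 8.36% of all 32851 windows of this length. The cAMP response element TGACGTCA was in 1 member window, that of Btg2, and in 1.79% of all windows. TGACTCA, the AP-1 element, was in 0 member windows and in 5.20% of all windows. CCAAT was in 7 member windows and in 37.4% of all windows. The windows of 5 members follow, each read 5′ to 3′ on the gene's own strand, since their genes differ most in how they behaved below. Capitals mark the p53 decamer, TGACGTCA and CCAAT on either strand.
Cdkn1a, upstream start (chr17:29090729-29091028, plus strand): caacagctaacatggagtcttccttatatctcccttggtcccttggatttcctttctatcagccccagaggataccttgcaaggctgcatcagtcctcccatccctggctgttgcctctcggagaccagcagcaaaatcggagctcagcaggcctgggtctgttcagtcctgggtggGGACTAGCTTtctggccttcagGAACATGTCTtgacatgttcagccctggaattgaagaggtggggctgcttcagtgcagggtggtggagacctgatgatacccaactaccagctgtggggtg
Ccng1 (chr11:40755237-40755536, minus strand): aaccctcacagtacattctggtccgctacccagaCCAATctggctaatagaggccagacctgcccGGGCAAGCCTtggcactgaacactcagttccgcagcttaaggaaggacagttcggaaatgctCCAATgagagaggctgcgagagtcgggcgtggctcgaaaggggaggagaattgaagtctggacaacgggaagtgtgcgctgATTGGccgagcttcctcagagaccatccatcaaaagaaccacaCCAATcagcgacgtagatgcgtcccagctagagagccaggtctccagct
Gadd45a (chr6:67037358-67037657, minus strand): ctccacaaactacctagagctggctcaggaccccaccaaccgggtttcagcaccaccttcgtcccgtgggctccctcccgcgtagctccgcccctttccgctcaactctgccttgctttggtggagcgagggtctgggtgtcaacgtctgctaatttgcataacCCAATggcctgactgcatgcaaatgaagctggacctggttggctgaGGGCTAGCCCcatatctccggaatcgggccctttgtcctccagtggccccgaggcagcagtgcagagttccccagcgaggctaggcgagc
Gadd45b (chr10:80929841-80930140, plus strand): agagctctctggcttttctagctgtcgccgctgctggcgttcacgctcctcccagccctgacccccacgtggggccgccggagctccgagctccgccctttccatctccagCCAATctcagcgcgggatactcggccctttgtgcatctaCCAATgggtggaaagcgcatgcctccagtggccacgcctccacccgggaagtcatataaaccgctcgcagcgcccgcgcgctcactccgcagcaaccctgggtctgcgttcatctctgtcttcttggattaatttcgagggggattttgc
Btg2 (chr1:134079106-134079405, minus strand): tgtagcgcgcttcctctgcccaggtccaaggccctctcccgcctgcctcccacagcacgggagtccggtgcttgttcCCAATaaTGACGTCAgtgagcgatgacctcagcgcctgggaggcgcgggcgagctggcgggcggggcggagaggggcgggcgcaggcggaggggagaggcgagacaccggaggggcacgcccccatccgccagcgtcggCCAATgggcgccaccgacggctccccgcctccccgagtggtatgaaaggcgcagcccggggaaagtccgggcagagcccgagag
The upstream Cdkn1a window holds 2 matches to the decamer and no CCAAT. Ccng1 and Gadd45a hold 1 decamer each, and Gadd45b and Btg2 hold 0. A match describes letters in a window and is not a measured site.

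Gadd45a was higher in the library labelled tamoxifen. The library labelled oil held 35 UMIs of it, a level of 0.530 CPM (UMIs scaled to the library total, as counts per 1e6; 0.369 to 0.737). The library labelled tamoxifen held 100, a level of 1.65 CPM (1.34 to 2.01). The log2 ratio was 1.64 (1.07 to 2.24), a fold of 3.11 (2.1 to 4.71). This ranked 9 of the 10527 genes that reached 100 UMIs when the libraries were summed. Gadd45a lay close to that floor, where ratios scatter more. Past 1.5-fold in either direction lay 3.36% of genes with at least 100 UMIs and 1.97% with at least 500. Since the gene was chosen with its ratio known, the rank is a description only. The transcript (chromosome 6 from 67035096 to 67037457, minus strand, GRCm38) was sparse: 30 of 6838 and 67 of 6472 cells held any UMI of it. Of the cells labelled oil, 26 held 1 UMI, 3 held 2 and 1 held 3. Of the cells labelled tamoxifen, 51 held 1 UMI, 9 held 2, 3 held 3, and single cells held 4, 5, 6 and 7. Counting at most 1 UMI per cell gave a log2 ratio of 1.28 (0.64 to 1.95), so the difference remained when cells with several UMIs could not carry it. Without the 5 cells with the most Gadd45a UMIs in each library, 25 and 75 UMIs were left, a log2 ratio of 1.71 (1.04 to 2.42). Both of these counts were chosen after the data had been seen.

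Thinned to 3000 UMIs per cell, a Gadd45a UMI was found in 10 of 6330 cells of the library labelled oil, or 0.158% (0.0758 to 0.290), and in 32 of 6127 cells of the library labelled tamoxifen, or 0.522% (0.358 to 0.737). Before thinning the shares were 0.439% and 1.04%. Thinning left out 508 and 345 shallower cells. No cell type that should lack Gadd45a was at hand to give the level of free RNA, since the sort kept 1 population.

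The classical targets did not move as a block. Of the 6, 4 had an interval above 0, 1 had an interval below 0 and 1 had an interval that included 0, beside 19.3% of all 10527 genes above and 39.8% below. Trp53inp1, which encodes a stress protein that promotes p53 activity and autophagy, had 553 and 1204 UMIs, or 8.37 and 19.8 CPM, a log2 ratio of 1.25 (1.10 to 1.39). Cdkn1a, which encodes the CDK inhibitor p21, had 5563 and 7530 UMIs, or 84.2 and 124 CPM, a log2 ratio of 0.56 (0.51 to 0.61). Ccng1, which encodes cyclin G1, had 3287 and 3980 UMIs, and its log2 ratio was 0.40 (0.33 to 0.47). These 3 targets were higher in the library labelled tamoxifen by more than counting error. Mdm2, the ubiquitin ligase of p53, had 2375 and 2333 UMIs, and its log2 ratio was 0.097 (0.014 to 0.18). Phlda3, which encodes an inhibitor of Akt, had 2839 and 2737 UMIs, and its log2 ratio was 0.070 (-0.0064 to 0.15). Both lay close to 0. Btg2, an antiproliferative gene that is also induced as an immediate early gene, had 4380 and 3495 UMIs, and its log2 ratio was -0.20 (-0.27 to -0.14). A stricter filter kept only 673 and 771 cells, at median depths of 4684 and 4818 UMIs, so its intervals are wide. In this smaller and shallower set the ratio was -0.026 (-0.23 to 0.18) for Btg2 and 0.25 (-0.0038 to 0.50) for Ccng1. Neither was then distinct from 0. Phlda3 was at -0.060 (-0.33 to 0.21) under that filter. Under TMM scaling it was at 0.135 (0.059 to 0.21), above 0, so its place in the count depends on the processing.

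The median log2 ratio of the 6 targets was 0.25, beside -0.063 over all genes counted. Gadd45a exceeded this median by 1.39. Set against single genes, the log2 ratio of Gadd45a exceeded that of Cdkn1a by 1.08 (0.52 to 1.64), that of Ccng1 by 1.24 (0.68 to 1.80) and that of Btg2 by 1.84 (1.28 to 2.40). Only the difference from Trp53inp1, 0.39 (-0.18 to 0.97), had an interval that included 0 among the other 9 members. The ratio of Trp53inp1 depended on the processing. Under the stricter filter it was 0.73 (0.26 to 1.21), beside 2.60 (0.45 to 5.79) for Gadd45a, which rests on 2 and 13 UMIs. With every cell given equal weight the ratios were 0.88 for Trp53inp1 and 1.83 for Gadd45a. Gadd45a and Trp53inp1 were also the 2 of the 10 members that passed a 1.5-fold difference upward, beside 2.09% of all genes. None of the 10 passed it downward, beside 1.27% of all genes.

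**Figure D1:**
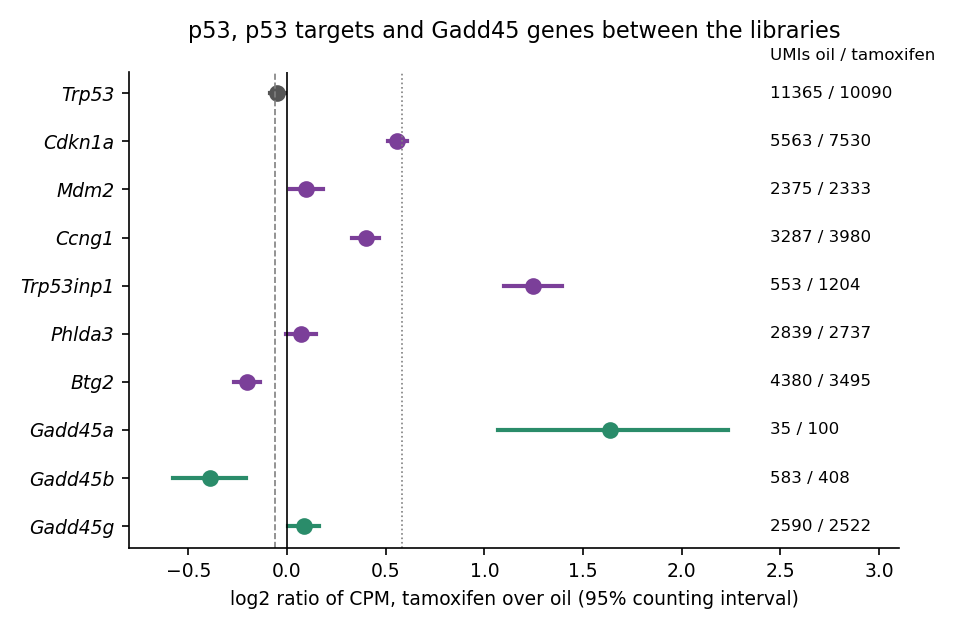
Log2 ratio of CPM, tamoxifen over oil, for the 10 genes, with the UMI counts of both libraries at the right. Bars are 95% counting intervals, the dashed line is the median of all genes counted and the dotted line is 1.5-fold. Gadd45a (1.64) and Trp53inp1 (1.25) lie past the dotted line, and Btg2 (-0.20), Gadd45b (-0.39) and Trp53 (-0.049) lie below 0. Under TMM and median-ratio scaling the interval of Trp53 includes 0.

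Trp53 itself hardly differed, with 11365 and 10090 UMIs, and its log2 ratio was -0.049 (-0.088 to -0.010), which lay above 0 under TMM, median-ratio and mitochondrial and ribosomal protein-free scaling. The other Gadd45 genes did not share the ratio of Gadd45a. Gadd45b had 583 and 408 UMIs, and its log2 ratio was -0.39 (-0.58 to -0.21), against -0.10 (-0.80 to 0.59) under the stricter filter. Gadd45g had 2590 and 2522 UMIs, and its log2 ratio was 0.084 (0.0046 to 0.16), and lay at -0.011 when every cell was given equal weight.

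Further p53 targets were examined to place these ratios. Of 33 listed genes, 22 reached 100 UMIs, and their median log2 ratio was 0.18. Of these 22, 14 had an interval above 0 and 1 an interval below 0, beside 19.3% and 39.8% of all genes counted. The highest were Zmat3, an RNA-binding tumor suppressor, at 0.67 (0.55 to 0.80), Sesn2, which restrains mTORC1, at 0.63 (0.48 to 0.79), and the repair nuclease gene Ercc5 at 0.46 (0.34 to 0.57). The lowest were Plk3 at -0.35 (-0.86 to 0.15), Aen at -0.19 (-0.27 to -0.10) and Fdxr at -0.11. Of the 11 targets with too few UMIs for a ratio, 6 had more UMIs in the library labelled tamoxifen, 3 had fewer and 2 had equal numbers. Plk2 had 0 and 14 UMIs, Fas had 0 and 7, Eda2r had 1 and 10, and Ak1 had 3 and 13. Gdf15 had 26 and 18, and Tigar had 9 and 4. These 6 were named after their counts were seen. Bax, a proapoptotic target with 17435 and 15984 UMIs, had a log2 ratio of -0.0027 (-0.034 to 0.028).

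Genes upstream of p53 moved little. Of 16 regulators and damage kinases, 2 had an interval above 0 and 4 below, beside 19.3% and 39.8% of all genes counted. Their median log2 ratio was 0.011. Daxx was at 0.29 (0.18 to 0.39), Mdm4, the partner of Mdm2, at 0.27 (0.21 to 0.33) and Mdc1 at 0.12. Chek1 was at -0.35 (-0.49 to -0.22), Cdkn2a at -0.35 (-0.69 to -0.011) and Usp7 at -0.16 (-0.21 to -0.10). Among 8 binding partners of the Gadd45 proteins, 1 had an interval above 0 and 5 below, beside the same shares of all genes. Their median was -0.22. Cdk1 was at -0.55, Ccnb1 at -0.51 and Pcna at -0.38, whereas Map3k4, which encodes MEKK4, was at 0.12, Mapk14 at -0.04 and Map2k3 at -0.06.

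Stress gene lists moved in different directions beside these. Their counts stand beside 19.3% of all genes counted with an interval above 0 and 39.8% with an interval below 0. All 12 immediate early genes with enough UMIs had an interval below 0, with a median log2 ratio of -0.51. Fosb was at -1.69, Fos at -1.22 and Dusp1 at -1.09, and the least different were Egr1 at -0.31, Ier2 at -0.34 and Ier3 at -0.34. Btg2 and Gadd45b lay on the same side of 0 as this list. Of 9 genes that answer to FOXO factors or glucocorticoids, 7 had an interval above 0 and 1 below, with a median of 0.52. Ddit4 was at 0.87, Fkbp5 at 0.80 and Per1 at 0.67, and the lowest were Cited2 at -0.10, Irs2 at 0.03 and Txnip at 0.28. Of 8 genes of the integrated stress response, 1 had an interval above 0 (Ddit3, 0.18) and 7 below, from Atf4 at -0.30 and Asns at -0.30 to Nupr1 at -0.51, Trib3 at -0.73 and Chac1 at -0.80. Of 11 interferon-stimulated genes, of which Usp18 is one, 10 had an interval above 0, with a median of 1.43. The highest were Ifit1 at 3.17, Oasl2 at 2.26 and Rtp4 at 2.23, and the lowest were Ifi35 at -0.02 and Bst2 at 0.24. The part of these programs in the ratios of the members was not tested.

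The libraries differed in cell cycle phase, so the members were compared within phases. Phases were called from S and G2M gene lists on thinned cells. G1 cells made up 43.6% (42.4 to 44.9) of the library labelled oil and 57.6% (56.3 to 58.8) of the library labelled tamoxifen, and the S and G2M lists had median log2 ratios of -0.39 and -0.36. In G1 cells Gadd45a had 16 and 74 UMIs, or 0.892 and 2.94 CPM, a log2 ratio of 1.72 (0.93 to 2.60). In S cells it had 12 and 11 UMIs, a ratio of 0.36 (-0.96 to 1.67), and in G2M cells 7 and 12 UMIs, a ratio of 1.18 (-0.28 to 2.77). The difference was thus measurable in G1 cells, whereas in S and G2M cells it was not detectable at this depth.

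The classical targets were better measured in each phase. Trp53inp1 had log2 ratios of 0.72 (0.54 to 0.89) in G1, 1.27 (0.79 to 1.75) in S and 1.61 (1.24 to 2.00) in G2M cells. Cdkn1a had ratios of 0.37, 0.44 and 0.54, all with intervals above 0. Ccng1 had ratios of 0.70 (0.58 to 0.83) in G1, 0.33 (0.19 to 0.46) in S and 0.17 (0.064 to 0.28) in G2M cells. Btg2 was lower in every phase, with ratios of -0.46, -0.45 and -0.39 beside -0.20 over all cells, and its level was highest in G1 cells of both libraries, at 130 and 94.2 CPM. At an equal phase mix the log2 ratio was 1.48 for Gadd45a, 0.83 for Trp53inp1, 0.47 for Ccng1, 0.41 for Cdkn1a, 0.069 for Mdm2, 0.039 for Phlda3, -0.45 for Btg2, -0.40 for Gadd45b, -0.10 for Gadd45g and 0.017 for Trp53. The order of the first 2 was kept, and the distance between Gadd45a and Trp53inp1 was wider than over all cells.

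**Figure D2:**
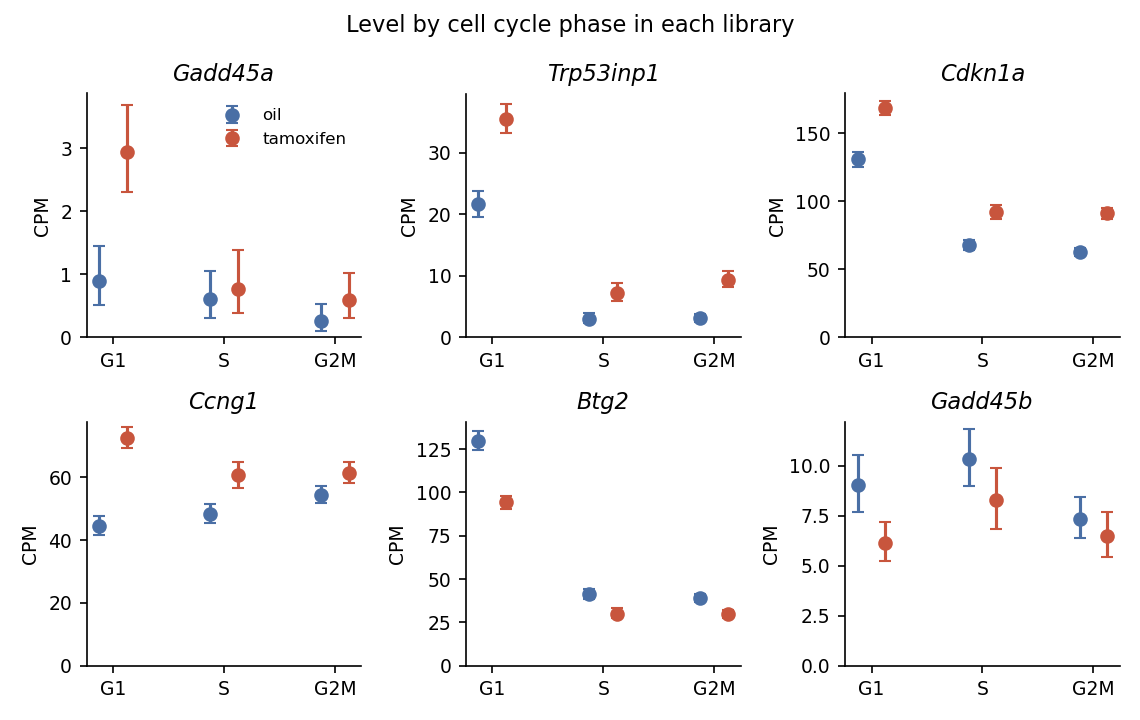
CPM in G1, S and G2M cells of the library labelled oil (blue) and the library labelled tamoxifen (red) for 6 members, with 95% Poisson intervals. Gadd45a separates in G1 (0.892 against 2.94 CPM), Trp53inp1 and Cdkn1a are higher in each phase of the library labelled tamoxifen, and Btg2 is lower in each.

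Whether single cells with Gadd45a were also rich in the classical targets was then asked within each library. In thinned cells of the library labelled tamoxifen, the 6 targets summed to 563 CPM in the 32 cells with a Gadd45a UMI and to 379 CPM in the 6095 cells without, a log2 ratio of 0.57 (0.16 to 0.96). In the library labelled oil the values were 667 CPM in 10 cells and 333 CPM in 6320 cells, a ratio of 1.0 (0.29 to 1.63). These rest on 54 and 20 target UMIs. With all UMIs of each cell, which brings 67 and 30 cells with Gadd45a, the ratio was 0.29 (0.11 to 0.46) in the library labelled tamoxifen and -0.14 (-0.46 to 0.16) in the library labelled oil, so in the latter the direction depended on the thinning. In G1 cells alone the thinned ratio was 0.098 (-0.38 to 0.54) in the library labelled tamoxifen and 0.80 (-0.0085 to 1.5) in the library labelled oil. Most Gadd45a cells of the thinned library labelled tamoxifen, 28 of 32, were in G1, and within G1 no enrichment of the targets was detectable at this depth. The choice of all UMIs and of G1 cells was made after the data had been seen.

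Single targets in the same cells were measured less precisely. With all UMIs in the library labelled tamoxifen, Cdkn1a was higher in cells with a Gadd45a UMI by 0.44 (0.15 to 0.71) on the log2 scale and Btg2 by 0.60 (0.19 to 0.98), beside 4.79% of all genes with an interval above 0 and 4.85% with an interval below 0. Trp53inp1 was at 0.52 (-0.24 to 1.19), Mdm2 at 0.20 (-0.39 to 0.74), Ccng1 at -0.093 (-0.59 to 0.36) and Phlda3 at -0.20 (-0.83 to 0.37). The list of other p53 targets, summed, was lower in these cells, at -0.23 (-0.34 to -0.12). Rps27l and Bax held 37025 and 15984 of the 78698 UMIs of this list in the library labelled tamoxifen, so the sum mostly follows them. No target had an interval above 0 in the library labelled oil, where 2.67% of all genes did, and Phlda3 was lower at -1.31 (-2.76 to -0.19), beside 2.52% of all genes with an interval below 0. Interferon-stimulated genes were higher in cells with Gadd45a of the library labelled tamoxifen, by 0.37 (0.21 to 0.52), although 82.1% of these cells and 84.6% of the cells without Gadd45a held any UMI of them.

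By the number of classical target UMIs, a Gadd45a UMI was found in 8 of 2651 thinned cells with 0 target UMIs of the library labelled tamoxifen, or 0.302% (0.130 to 0.594), and in 9 of 782 cells with 3 or more, or 1.15% (0.528 to 2.17). Cells with 1 and with 2 target UMIs lay between, at 0.474% and 0.754%. In the library labelled oil the numbers were 0 of 2831, which allows a share of cells with a UMI of up to 0.106% at this thinned depth, 3 of 1921, 5 of 927 and 2 of 651 cells. Before thinning 13 of the same 2831 cells held a Gadd45a UMI. The neighbouring shares overlapped in their intervals in both libraries.

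The better measured targets were compared in the same way, with cells of all phases together. Cdkn1a, Trp53inp1 and Btg2 were each highest in G1 cells of both libraries. In the library labelled oil Cdkn1a was at 131 CPM in G1 and 62.7 CPM in G2M cells, and Trp53inp1 at 21.6 and 3.05 CPM. Phase was not held equal in the values that follow. In thinned cells of the library labelled tamoxifen, cells with a Cdkn1a UMI had more Phlda3 by 1.44 (1.24 to 1.64) on the log2 scale, more Trp53inp1 by 1.10 (0.83 to 1.37), more Ccng1 by 1.0 (0.82 to 1.17), more Mdm2 by 0.71 (0.48 to 0.93) and more Btg2 by 0.55 (0.38 to 0.71). The same differences in the library labelled oil were 0.78 (0.57 to 0.99), 0.93 (0.53 to 1.32), 0.17 (-0.06 to 0.40), 0.31 (0.07 to 0.54) and 0.46 (0.30 to 0.62). Ccng1 and Phlda3 thus tracked Cdkn1a more closely in the library labelled tamoxifen, with intervals that did not overlap between libraries. With all UMIs, 5 of the other 5 classical targets had an interval above 0 in the library labelled tamoxifen and 4 of 5 in the library labelled oil, beside 16.8% and 17% of all genes. The list of other p53 targets, summed, was higher in thinned cells with Cdkn1a by 0.39 (0.35 to 0.43) in the library labelled tamoxifen and by 0.06 (0.02 to 0.11) in the library labelled oil. Rps27l and Bax hold most UMIs of this sum as well. Gadd45a had 21 of its 40 thinned UMIs in the 1560 cells with Cdkn1a of the library labelled tamoxifen, a log2 ratio of 1.69 (0.73 to 2.67), and 6 of 11 in the library labelled oil. With all UMIs, 70 of 100 Gadd45a UMIs lay in cells with Cdkn1a in the library labelled tamoxifen, a ratio of 1.28 (0.64 to 1.95), and 12 of 35 in the library labelled oil, a ratio of -0.53 (-1.67 to 0.54).

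Counted by pairs, Trp53inp1 and Phlda3 were found in the same thinned cell 93 times in the library labelled tamoxifen where independence gives 45.5, a ratio of 2.04, and 39 times against 25.9 in the library labelled oil, a ratio of 1.51. Ccng1 and Trp53inp1 were found together 127 times against 64.1, a ratio of 1.98, beside 1.36 in the library labelled oil. Cdkn1a and Ccng1 gave 1.42 in the library labelled tamoxifen and 1.03 in the library labelled oil. Not all pairs of targets exceeded independence: Ccng1 and Btg2 gave 0.996 and 0.995, and Mdm2 and Btg2 gave 1.10 and 1.15. Pairs of genes outside the members were not counted, and phase was not held equal, so these ratios have no background. Trp53 stood apart from its targets, with ratios between 0.94 and 1.09 for the 6 pairs in the library labelled tamoxifen. Gadd45b with Cdkn1a gave 0.84 in the library labelled tamoxifen and 1.06 in the library labelled oil. Gadd45a and Trp53inp1 shared 7 cells where 2.16 were expected in the library labelled tamoxifen, and Gadd45a and Cdkn1a shared 14 where 8.15 were expected. Gadd45a shared 5 cells with Phlda3 where 3.52 were expected, 7 with Btg2 where 5.45 were, and 4 with Mdm2 where 3.47 were. With Ccng1 it shared fewer than expected, 3 where 4.96 were. In the library labelled oil the 6 pairs of Gadd45a with a classical target held 0 to 5 cells, where 0.362 to 2.17 were expected.

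**Figure D3:**
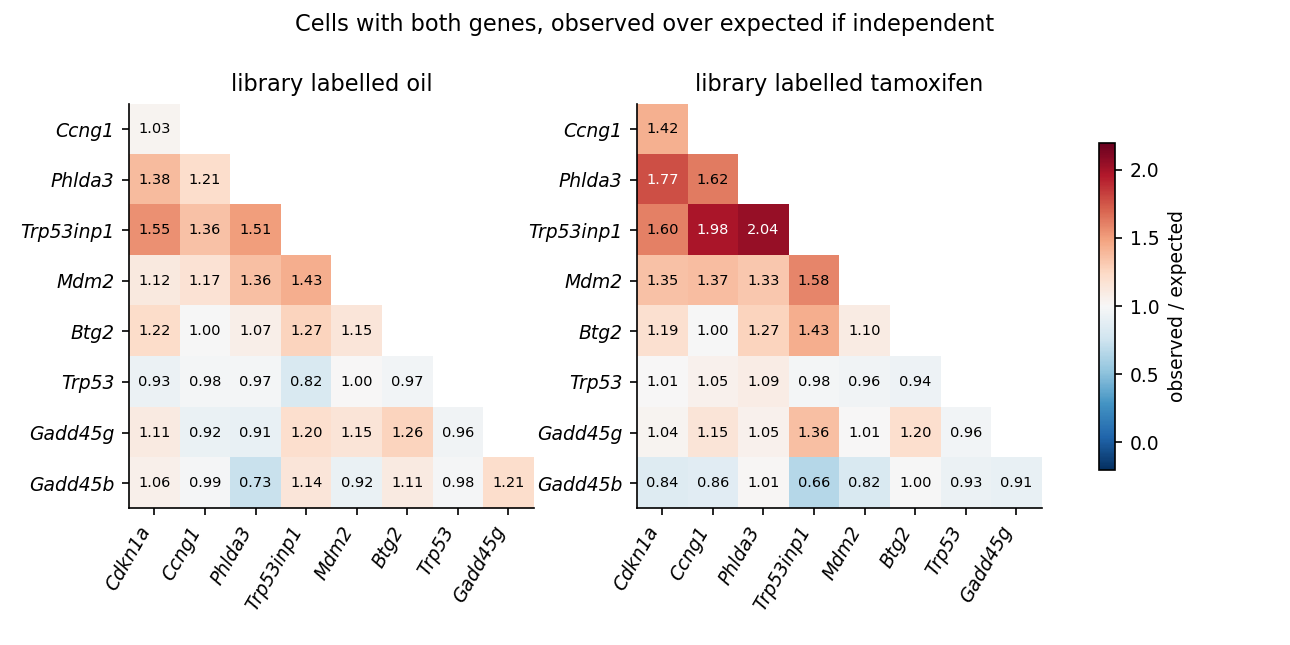
Observed over expected number of thinned cells with both genes of a pair, in the library labelled oil (left) and the library labelled tamoxifen (right). A value of 1 means as many as independence gives, and Gadd45a is left out because its expected numbers are small. Pairs among Cdkn1a, Ccng1, Phlda3 and Trp53inp1 reach 1.42 to 2.04 at the right and 1.03 to 1.55 at the left. Pairs of Btg2 with the other classical targets run from 0.996 to 1.43 at the right and from 0.995 to 1.27 at the left.

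A small set of cells rich in classical targets was more frequent in the library labelled tamoxifen. Cells with 5 or more target UMIs among 3000 made up 2.21% (1.86 to 2.60) of the library labelled oil, 140 cells, and 4.18% (3.69 to 4.71) of the library labelled tamoxifen, 256 cells. The variance of the summed target UMIs over their mean was 1.75 and 2.31. Of the 22 other p53 targets with enough UMIs, which did not choose these cells, 21 had a higher level in them than in cells with 0 target UMIs in the library labelled tamoxifen, 15 without overlap of the intervals. In the library labelled oil 16 of 22 were higher, 9 without overlap, and 0 were lower without overlap in either library. The share of all genes that differed between these bins was not computed. The bins also differed in phase, so these counts have no background to be read against. Zmat3 went from 13.7 CPM (12.4 to 15.2) in cells with 0 target UMIs to 94.8 CPM (82.3 to 109) in cells with 5 or more in the library labelled tamoxifen, and from 10.5 to 32.8 CPM in the library labelled oil. Sesn2 went from 8.94 to 54.1 CPM and from 7.40 to 25.4 CPM. Bax, which did not differ between the libraries as a whole, went from 231 to 542 CPM and from 259 to 361 CPM. Ddb2, a DNA damage sensor gene, went the other way, from 12.4 to 6.87 CPM and from 11.6 to 7.41 CPM, with overlapping intervals. In the library labelled tamoxifen 12 of 14 Plk2 UMIs, 7 of 7 Fas UMIs and 8 of 10 Eda2r UMIs lay in these 256 cells. The bins and these genes were chosen after the data had been seen.

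Gadd45a was at 0.974 CPM (0.642 to 1.42) in cells with 0 target UMIs, 4.50 CPM (2.79 to 6.89) in cells with 3 or 4 and 4.12 CPM (1.89 to 7.83) in cells with 5 or more of the library labelled tamoxifen. In the cells richest in targets its 9 UMIs came from 4 cells. In the library labelled oil it went from 0.402 to 1.22 CPM at 3 or 4, with 0 UMIs in the 140 richest cells. The p53 regulators summed to 579 and 707 CPM in cells with 0 and with 5 or more target UMIs of the library labelled tamoxifen. Among them Mdm4 went from 73.7 CPM (70.5 to 76.9) to 198 CPM (180 to 217), and from 65.2 to 118 CPM in the library labelled oil. The share of G1 cells moved with the bins, from 49.3% to 80.1% in the library labelled tamoxifen and from 33.9% to 75% in the library labelled oil, as did the immediate early genes, from 764 to 1555 CPM and from 1185 to 4510 CPM. Within G1 cells the other p53 targets, a sum held mostly by Rps27l and Bax, still went from 957 to 2364 CPM and from 921 to 1374 CPM. Gadd45a of the library labelled tamoxifen went there from 2.36 CPM (1.48 to 3.57) to 6.18 CPM (3.60 to 9.90) at 3 or 4 and 5.06 CPM (2.18 to 9.97) at 5 or more.

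**Figure D4:**
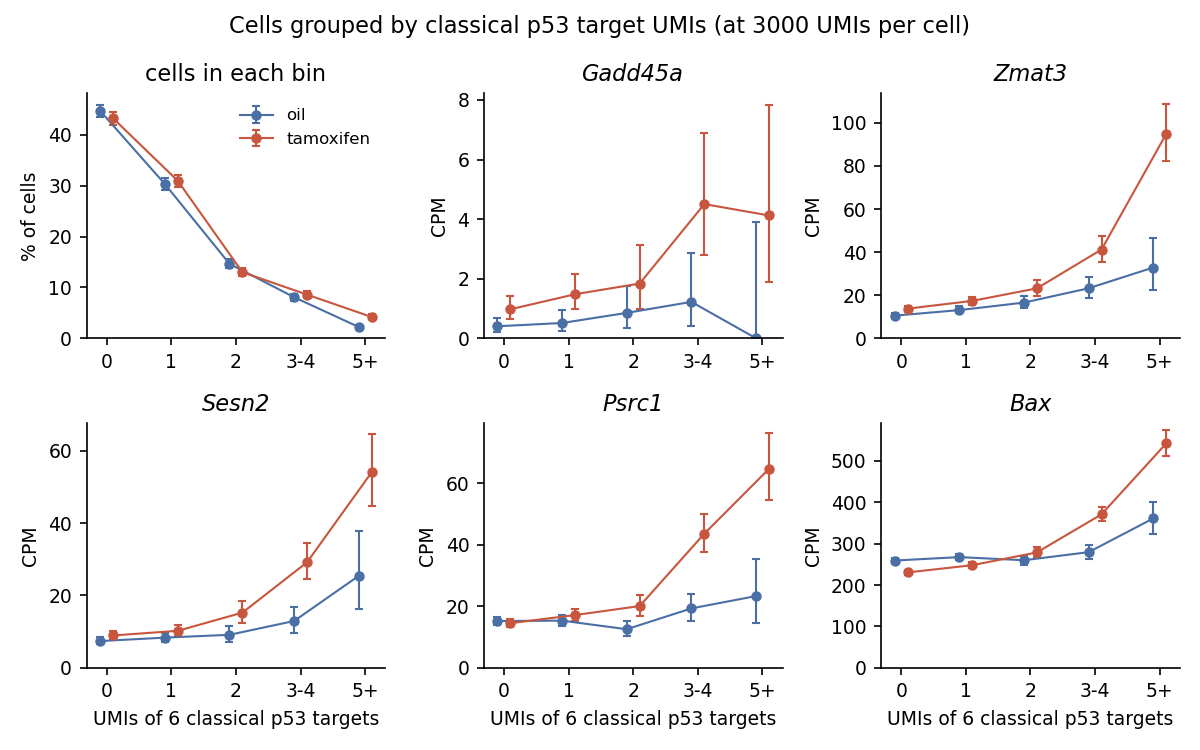
Cells grouped by UMIs of the 6 classical p53 targets among 3000 thinned UMIs: share of cells in each bin, then CPM of 5 genes that did not define the bins, with 95% intervals (blue oil, red tamoxifen). Zmat3 reaches 94.8 CPM and Bax 542 CPM in the cells with 5 or more target UMIs of the library labelled tamoxifen, beside 32.8 and 361 CPM in the library labelled oil, whereas the intervals of Gadd45a are wide.

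Clusters were used to see in which cells the members differed. They were built without the members, the interferon genes, the other p53 targets and genes that differed 1.5-fold between the libraries, and are given by number. In 6 of 9 clusters Gadd45a had the higher level in the library labelled tamoxifen, with an interval above 0 in 3. In cluster 0, led by the mast cell protease genes Mcpt1 and Mcpt2, it had 4 and 15 UMIs, and its log2 ratio was 2.38 (0.73 to 4.43). In cluster 4, led by Cpvl and Cited1, it had 5 and 25 UMIs, a ratio of 2.30 (0.88 to 4.04). In cluster 5 it had 3 and 18 UMIs, a ratio of 2.10 (0.32 to 4.51). This cluster was led by Tac2, Cldn13, the interferon-stimulated gene Isg15 and the globin gene Hba-a2. Trp53inp1 was higher in 8 of 9 clusters, with an interval above 0 in 6, and its ratios in clusters 0, 4 and 5 were 0.57, 1.65 and 1.53. Cdkn1a was higher in 8 of 9, with ratios of 0.38, 0.99 and 1.04 in the same clusters.

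The clusters also differed in how far the targets moved together. In cluster 5 each of the 6 classical targets had an interval above 0, with Phlda3 at 1.30 (1.0 to 1.61), Ccng1 at 0.98 (0.77 to 1.19), Mdm2 at 0.58 (0.31 to 0.86) and Btg2 at 0.37 (0.19 to 0.55). The share of all genes with an interval above 0 inside a cluster was not computed, so this count has no background. The share of target-rich cells in cluster 5 was 1.32% (0.531 to 2.69) in the library labelled oil, against 8.82% (6.91 to 11.0) in the library labelled tamoxifen. In cluster 0 the share was 6.06% and 8.84%, Phlda3 was at 0.010 (-0.15 to 0.17) and Btg2 at -0.47 (-0.61 to -0.34). Cluster 6, led by Crebrf and Klhl24, was 95.4% cells of the library labelled tamoxifen, 802 against 39. Its cells of the library labelled tamoxifen held Gadd45a at 2.09 CPM (1.08 to 3.65) and Trp53inp1 at 29.2 CPM, but Cdkn1a at 46.4 CPM, where cluster 5 of that library had 2.49, 35.7 and 222 CPM. Gadd45a thus lay at a like level in both clusters, with overlapping intervals, whereas Cdkn1a did not. A cluster held mostly by 1 library cannot be told apart from that library. Without cluster 6 the log2 ratio of Gadd45a was 1.68 (1.09 to 2.30), that of Trp53inp1 1.18 and that of Cdkn1a 0.65.

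**Figure D5:**
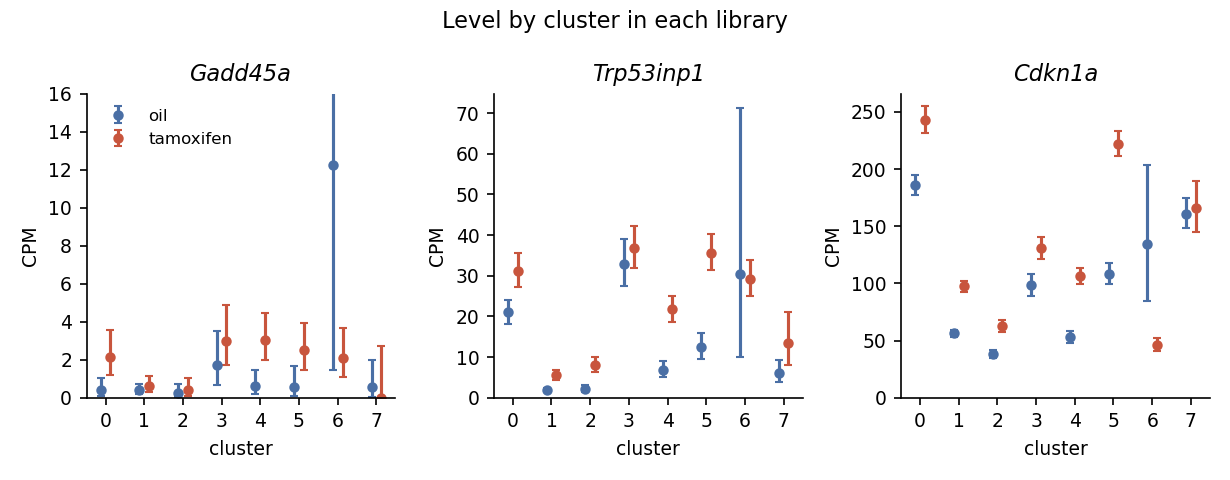
CPM of Gadd45a, Trp53inp1 and Cdkn1a in clusters 0 to 7 of each library (blue oil, red tamoxifen) with 95% Poisson intervals; cluster 8, of shallow cells, is not drawn and the upper interval of Gadd45a in the 39 oil cells of cluster 6 runs past the axis. In the library labelled tamoxifen Gadd45a lies between 2.09 and 3.03 CPM in clusters 0, 3, 4, 5 and 6, at 0.623 and 0.411 CPM in clusters 1 and 2 and at 0 in cluster 7, and Cdkn1a ranges from 46.4 to 243 CPM.

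The 5 genes of 6084 compared whose thinned level followed Gadd45a most closely over cells of both libraries were Mxd1, Stk17b, Hes1, Rnf128 and Runx2. Their mean Pearson correlation within the libraries, over 6330 and 6127 cells, was 0.056 for Mxd1 and 0.041 for Runx2. None of the 10 members was among them, and correlations of this size in counts this sparse describe these cells only.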

How the data were processed

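Spleen leukemia cells were captured with the 10x Chromium V3 3′ kit, with 8000 cells targeted per library. The authors aligned reads to mm10 with Cell Ranger 3.0.2 and deposited raw UMI counts per gene and barcode, 7774 barcodes for oil and 7311 for tamoxifen. Seurat is also named in the submitters' processing notes. Barcodes with 500 or more genes and no more than 10% mitochondrial UMIs were kept. UMIs were summed per library, and ratios of CPM carry 95% counting intervals. On counts simulated as Poisson, which these intervals assume, coverage was 95.2% over 10527 genes. This checks the computation only, and the real counts spread wider over cells. The variance over the mean in thinned cells, which is 1 for Poisson counts, was above 1 for every member in both libraries. It ran from 1.01 (Mdm2, oil) to 2.04 (Cdkn1a, tamoxifen), and for Gadd45a it was 1.18 in oil and 1.84 in tamoxifen. The intervals are therefore too narrow for genes such as Cdkn1a and Gadd45a. Cells were thinned to 3000 UMIs for shares, phases (scanpy 1.11.5) and co-detection. Clusters came from leidenalg 0.10.2. Scaling alternatives used edgeR 4.0.16 and DESeq2 1.42.0 for factors only. Doublets were not removed. The members and lists were chosen with earlier results of these data known. The genes named are the members, and for each list the highest and the lowest 3 ratios, of which 1 interferon-stimulated gene is not reported here. Bax, Ddb2, Mdm4 in the bins and the targets with few UMIs were chosen after their values were seen. Promoter windows came from RefSeq and gene positions from GENCODE M21. Nothing maps cells to the 3 pooled mice, so spread between animals is unknown.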

Additional observations from a re-analysis of the deposited data

Results flagged for a closer look

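Several members moved in opposite directions in different cells of the same libraries, and none of these differences was tested, since each group has 1 library. Gadd45g had a log2 ratio, tamoxifen over oil, of 0.17 (0.016 to 0.33) in G2M cells and -0.17 (-0.28 to -0.053) in G1 cells. Cdkn1a had a ratio of 2.06 in cluster 8, from 4 and 8 UMIs in shallow cells, and -1.53 in cluster 6, from 22 and 267 UMIs. Phlda3 had a ratio of 1.30 in cluster 5 and -1.62 in cluster 6, from 7 and 80 UMIs in the latter. Btg2 had a ratio of 0.37 in cluster 5 and -1.17 in cluster 6, from 26 and 406 UMIs in the latter. The values of cluster 6 rest on 39 cells of the library labelled oil.

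Barcodes left out by the filter, 936 and 839, entered only the alternatives with a looser filter or with all barcodes. In them Ccng1 had 164 and 211 UMIs, and its log2 ratio was 0.31 (0.0039 to 0.61), on the same side of 0 as in the kept cells. Gadd45a had 3 and 2 UMIs there.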

How the results depend on the processing

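Of 210 alternative values over 30 results, 163 stayed within the error of the reported value, 40 moved beyond it and 7 changed sign, and for none was the cause tested. The ratio of Gadd45a lay between 1.28 and 2.60 over 11 alternatives. A stricter filter (1000 genes, 5% mitochondrial UMIs) left few Gadd45a UMIs and gave 2.60 for Gadd45a, 2.41 over the classical median, 1.89 for classical targets in oil cells with Gadd45a, 1.45 points between oil cells with 3 or more and 0 target UMIs, -0.39 for the immediate early median and 1.74 for the interferon median, and no value in S and G2M cells. Trp53 changed sign with TMM (0.016), median-ratio factors (0.014), totals without mitochondrial and ribosomal protein genes (0.032) and without cluster 6 (0.036). Each of these intervals of Trp53 included 0. Gadd45g changed sign with equal cell weights (-0.011) and without cluster 6 (-0.036). The immediate early median was -0.44 with TMM, -0.45 with median-ratio factors and -0.43 with the reduced totals, which gave 0.33 for the classical median and 0.60 for the FOXO and glucocorticoid median, 0.39 with equal weights. The share of genes past 1.5-fold was 3.36%, against 7.72% at 20 UMIs and 1.97% at 500. Without thinning the difference in Gadd45a shares was 0.597 points, and classical targets in oil cells with Gadd45a were at -0.14, against 0.22 at 5000 UMIs. In G1 cells alone those of tamoxifen cells were at 0.098. No paired analysis was possible because there is 1 library a group, and no replicate could be left out. TMM moved all ratios up by 0.065.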
